A study of Cricetulus griseus with 6 samples.

Results

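The genes examined here encode the subunits and assembly factors of the mitochondrial respiratory chain and of ATP synthase. They were chosen by symbol, as rows beginning with Nduf (followed by a, b, c, s or v), Cox4 to Cox8, Uqcr or Atp5, or named *Sdha*, *Sdhb*, *Sdhc*, *Sdhd* or *Cyc1*, with a mean of at least 0.1 FPKM (read fragments scaled to transcript length and to the size of the library) over the 6 libraries. Of the 27873 rows, 67 met this rule. They comprised 36 subunit genes of complex I, 7 complex I assembly factors, 4 genes of complex II, 2 of complex IV and 18 rows of ATP synthase. No row of the Uqcr, *Cyc1* or Cox type was in the data used here, so complex III, nearly all of complex IV and the subunits encoded by mitochondrial DNA were not analysed here.

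The data are RNA-Seq of CHO-T cells, a Chinese hamster ovary line stably carrying mouse T-cadherin (*Cdh13*) introduced by a retrovirus under puromycin selection. Cells transfected with negative control siRNA (3 libraries) were compared with cells transfected for the same length of time with an siRNA against *Xbp1* (3 libraries). *Xbp1* encodes a transcription factor of the unfolded protein response. Both groups carry the transgene, and a single siRNA sequence was used against *Xbp1*. The labels do not say whether libraries of a group came from separate cultures, and the methods describe the results only in general as coming from independent biological experiments, so p-values measure the spread between these samples, which may be technical.

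Complex I passes electrons from NADH to ubiquinone and pumps protons with a matrix arm, which holds the flavin and the iron-sulfur clusters, and a membrane arm with a part proximal and a part distal to the matrix arm. Complex II feeds electrons from succinate into the same quinone pool, complexes III and IV carry them on to oxygen, and ATP synthase uses the proton gradient to make ATP. Most of these subunits are encoded in the nucleus, made in the cytosol and imported, and each sits in its complex in a fixed number of copies.

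*Xbp1* fell from 26.8 ± 1.35 FPKM to 1.89 ± 0.440 FPKM (SD, n = 3), a loss of 93.0% (limma adjusted p = 5.61e-06), with no overlap between the groups. The FPKM of all rows summed to between 646651 and 666267 in the control siRNA libraries and to between 593487 and 600986 in the *Xbp1* siRNA libraries, an average change of -8.95%. Relative read depth, read from the commonest ratio between libraries over low values, was between 94.0% and 116% of that of control siRNA library 1. The line is labelled as ovary. Of 8 markers of ovarian steroidogenic and granulosa cells, 5 had a row in the data. Of these, 3 passed the filter, at control means between 0.822 FPKM (*Star*) and 2.69 FPKM (*Amh*). The summed mesenchymal markers, led by *Vim*, had between 405 and 429 FPKM with control siRNA and between 337 and 364 FPKM with *Xbp1* siRNA. Of the 3 that passed the filter, *Vim* was lower, *Fn1* was higher by 0.83 on the log2 scale and *S100a4* did not pass the test. The summed FPKM of the epithelial markers, of which *Epcam* and *Cdh1* passed the filter, went from between 1.83 and 2.16 to between 4.59 and 5.79, and that of the immune markers, of which *Cd68* alone passed, from between 5.18 and 6.21 to between 6.99 and 8.80. The summed level of the endothelial markers was at most 0.305 FPKM in any library. *Fshr*, *Lhcgr*, *Col1a1*, *Thy1*, *Krt18*, *Ptprc* and *Cdh5* were listed at 0 in every library. The part of these shifts in the results that follow was not tested, and in bulk RNA fewer cells of a type and less RNA per cell cannot be told apart.

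Respiratory chain genes were among the abundant transcripts of these cells. Control means ran from 2.80 FPKM (*Ndufa4l2*) to 1140 ± 65.3 FPKM (*Atp5f1e*, the epsilon subunit of ATP synthase), with a median of 182 FPKM over the 66 rows above the floor of 3 reads. The 17 ATP synthase rows above the floor had the highest median, 330 FPKM. The 36 complex I subunits had a median of 176 FPKM and ran from 36.3 ± 3.42 FPKM for *Ndufs1*, an iron-sulfur subunit of the matrix arm, to 427 ± 21.0 FPKM for *Ndufb8*, a subunit of the distal membrane arm. The 7 assembly factors, which help to build complex I and are not part of the finished enzyme, were lower, with a median of 26.9 FPKM. *Atp5f1e* stood on 2 rows, of which the second held at most 3 reads in any library. That row was at the floor and is given no fold change, which leaves 66 rows with one.

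**Figure D1:**
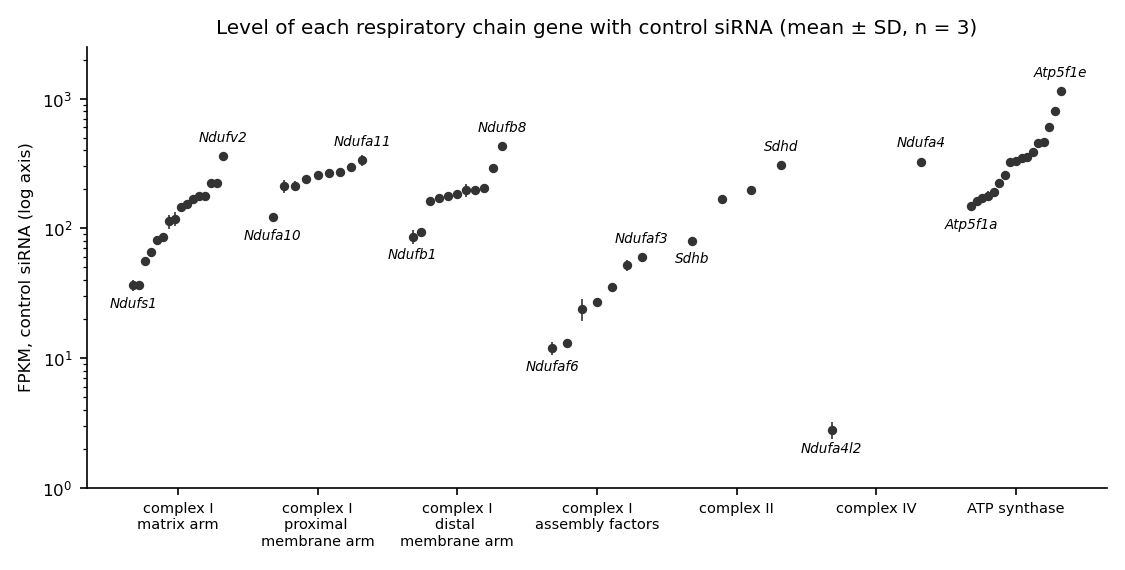
Mean FPKM with control siRNA (log axis, bars are the SD of 3 libraries) of each member above the floor, grouped by complex and by arm of complex I, with the lowest and highest gene of each group named. ATP synthase genes sit highest, with a median of 330 FPKM, and assembly factors sit near 26.9 FPKM.

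Knockdown of *Xbp1* was followed by small changes in this group, and the count in each direction depended on how the libraries were scaled. With values as deposited, 21 of the 67 rows were lower and 5 higher after *Xbp1* siRNA at an adjusted p under 0.05 (limma, Benjamini-Hochberg over 14361 rows). Over all rows tested 20.2% were called lower and 20.2% higher. None of the 67 rows also passed a log2 fold change of 1 in size, a limit passed by 5.19% of all rows, while 32 were below an unadjusted p of 0.05 in the same fit, as were 48.9% of all rows. The log2 fold change was negative for 47 rows and positive for 19, with a median of -0.09 against 0.01 over all rows tested. Leaving out *Xbp1* siRNA library 2 left 13 rows lower (17.9% of all rows in that fit), and leaving out *Xbp1* siRNA library 1 left 14 (18.0%). Without control siRNA library 1 there were 8 higher rows (18.4%), and without control siRNA library 2 there were 3 (16.9%). With all libraries but no trend in eBayes, 10 rows were lower and 2 higher (18.3% and 18.1% of all rows).

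Fold changes as deposited varied with abundance over the whole table. Among rows outside the group with a mean of at least 100 FPKM (1014 rows) the median log2 fold change was -0.09, while it was -0.01 for 6379 rows of 10 to 100 FPKM and 0.06 for 6901 rows under 10 FPKM. The 49 members with a mean of at least 100 FPKM had a median of -0.08. The direction of the group was therefore examined under 5 further scalings.

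When each library was scaled to the same FPKM total, the median of all rows tested moved to 0.14 and that of the members to 0.05, and the calls turned to 21 higher and 6 lower (31.7% and 13.0% over all rows). Median-ratio scaling left the members at 5 higher and 21 lower (20.0% and 20.4% over all rows). Scaling on abundant rows outside the group gave 13 higher and 8 lower (27.6% and 14.6%), with a median of 0.01 against 0.10 over all rows. Quantile normalization gave 20 higher and 7 lower (21.7% and 18.5%), with a median of 0.03 against 0.02. Cyclic loess gave 14 higher and 8 lower (20.5% and 19.4%), with a median of 0.01 against 0.00. The median of the members was therefore negative with values as deposited and after median-ratio scaling and positive under the other 4.

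**Figure D2:**
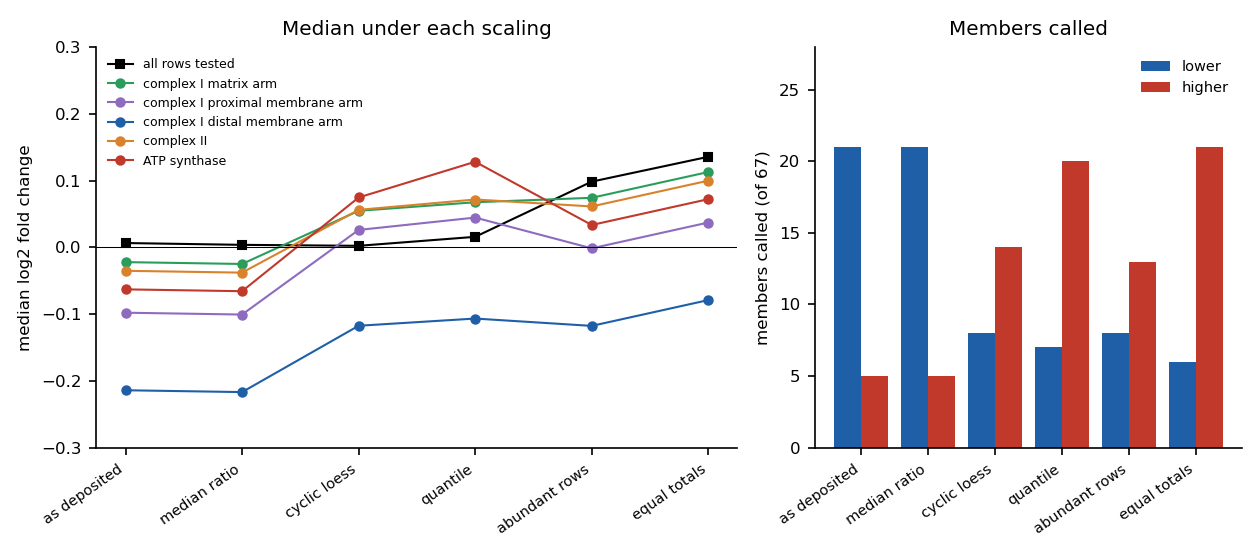
Left, the median log2 fold change (*Xbp1* siRNA minus control siRNA) of all rows tested and of 5 member groups under each of 6 scalings; right, the number of the 67 members called lower or higher under each. The distal membrane arm of complex I is the lowest of the plotted groups (the arms of complex I, complex II and ATP synthase, without the assembly factors) under all 6 scalings, while the counts turn from 21 lower and 5 higher as deposited to 6 lower and 21 higher with equal totals.

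The genes with the same call under the deposited and all 5 other scalings were therefore taken as the base of the description, a choice made after the data had been seen. There were 6 lower (*Ndufb10*, *Ndufb11*, *Ndufb3*, *Ndufb8*, *Ndufaf3* and *Atp5mc3*) and 5 higher (*Ndufb5*, *Ndufv3*, *Sdha*, *Atp5mpl* and *Atp5if1*) among the 67. Over all rows 12.8% were called lower and 18.3% higher in this strict sense, shares that both exceed those among the members. Of the lower genes, 4 belong to the distal membrane arm of complex I.

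**Figure D3:**
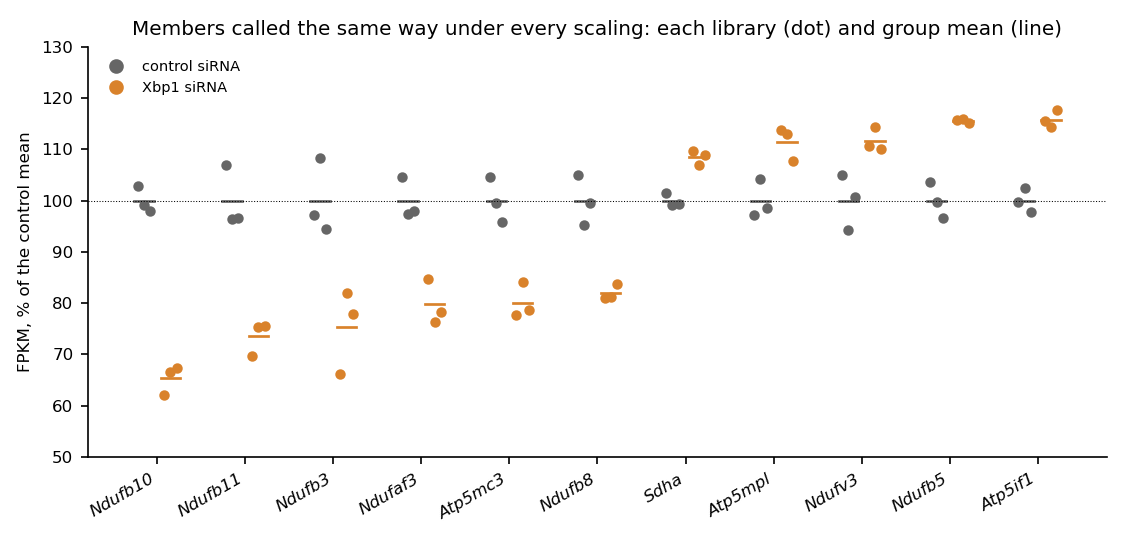
FPKM of each library as a percent of the control siRNA mean (dots; lines are group means, n = 3) for the 11 genes called the same way under all 6 scalings. All *Xbp1* siRNA dots of the 6 genes on the left lie below all control dots, and all those of the 5 on the right lie above. The genes were chosen by their calls in these same libraries, so this separation largely follows from the choice and adds no support.

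Most complex I genes called lower lay in the distal membrane arm. Of the 36 subunit genes, 2 were higher and 12 lower as deposited (20.2% in each direction over all rows), with a median log2 fold change of -0.10. Leaving out *Xbp1* siRNA library 2 left 7 lower and leaving out control siRNA library 3 left 8, while leaving out control siRNA library 1 gave 5 higher. The subunits were grouped by arm after their values had been seen, with each gene counted in 1 arm only. In the distal membrane arm (11 genes) 7 were lower and 1 higher, with a median of -0.21. In the proximal membrane arm (9 genes) 3 were lower, none was higher and 3 were below an unadjusted p of 0.05, at a median of -0.10. This reversed under other scalings, with 0 lower and 3 higher under equal totals, quantile and cyclic loess scaling and 0 lower and 2 higher with abundant rows (3 below an unadjusted p of 0.05 each time by limma), at medians between -0.00160 and 0.0445. In the matrix arm (16 genes) 2 were lower and 1 higher at a median of -0.02. Under the other scalings the distal arm kept between 4 and 7 lower and 1 higher gene and a median between -0.22 and -0.08. The matrix arm had no lower gene, between 4 and 8 higher genes and between 5 and 9 below an unadjusted p of 0.05 under equal totals, abundant rows, quantile and cyclic loess scaling (limma), where between 48.6% and 51.7% of all rows were. On leaving out 1 library the distal arm kept between 5 and 7 lower genes and 1 higher. The proximal arm had 1 lower without control siRNA library 3, *Xbp1* siRNA library 1 or *Xbp1* siRNA library 2, and a median of -0.0191 without control siRNA library 1. The matrix arm had 4 higher and a median of 0.00864 without control siRNA library 1, and 0 higher without each of the other libraries (3 or 4 below an unadjusted p of 0.05 by limma). Its lower genes numbered 0 without *Xbp1* siRNA library 2 and 1 without control siRNA library 2, *Xbp1* siRNA library 1 or *Xbp1* siRNA library 3. The difference between arms was not tested.

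*Ndufb10*, a distal membrane arm subunit that forms disulfide bonds in the intermembrane space, showed the largest fold change among the members. Its level was 205, 197 and 195 FPKM in the control siRNA libraries and 123, 132 and 134 FPKM in the *Xbp1* siRNA libraries. The groups did not overlap, and the level fell by 34.7%, a log2 fold change of -0.61 ± 0.04 (SE) with an adjusted p of 3.32e-05 by limma. Under the other scalings its log2 fold change lay between -0.62 and -0.48, and the adjusted p was at most 0.000374 on leaving out any library (limma).

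*Ndufb11*, a single-span subunit of the same arm encoded on the X chromosome in mammals, had 188, 170 and 170 FPKM with control siRNA and 123, 133 and 133 FPKM with *Xbp1* siRNA. All 3 *Xbp1* siRNA libraries were below all controls, at a log2 fold change of -0.44 ± 0.05 (SE, limma adjusted p = 0.000505). *Ndufb3*, a further accessory subunit of the distal arm, had 180, 200 and 175 FPKM with control siRNA and 122, 152 and 144 FPKM with *Xbp1* siRNA. Its spread within groups was wider than that of *Ndufb10*, and its log2 fold change was -0.41 ± 0.09 (SE, limma adjusted p = 0.00719). *Ndufb8*, whose protein is labile when complex I is not assembled, had 449, 407 and 426 FPKM with control siRNA and 346, 347 and 357 FPKM with *Xbp1* siRNA. It fell by 18.0%, a log2 fold change of -0.29 ± 0.04 (SE, limma adjusted p = 0.00114). The calls of *Ndufb10*, *Ndufb11*, *Ndufb3* and *Ndufb8* held without each library in turn.

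*Ndufb5*, a subunit of the same distal arm, moved the other way. It had 167, 161 and 156 FPKM with control siRNA and 186, 187 and 185 FPKM with *Xbp1* siRNA, with no overlap. The rise was 15.6%, a log2 fold change of 0.21 ± 0.03 (SE, limma adjusted p = 0.00228). It held without each library in turn, and under the other scalings the log2 fold change lay between 0.21 and 0.34. Within a library the scaling cancels when these 2 transcripts are set against each other. The ratio of *Ndufb5* to *Ndufb10* was 0.810 ± 0.00935 with control siRNA and 1.44 ± 0.0665 with *Xbp1* siRNA (SD, n = 3), and that of *Ndufb5* to *Ndufb8* was 0.377 ± 0.0150 and 0.532 ± 0.0114. These pairs were chosen after their values had been seen and carry no test.

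**Figure D4:**
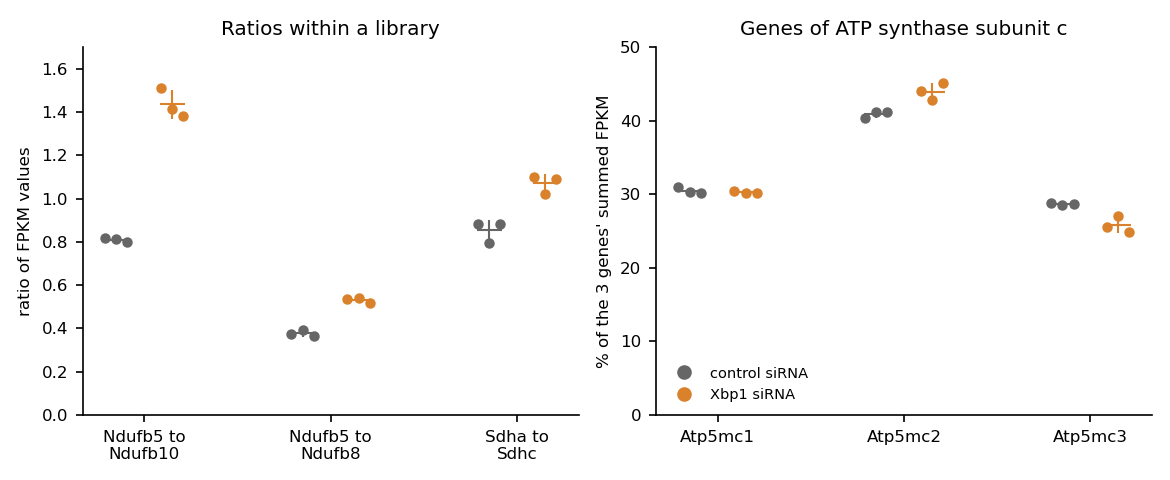
Left, the ratio of FPKM values of paired subunits within each library; right, the percent of the summed FPKM of the genes of ATP synthase subunit c that each gene holds (dots are libraries, lines the mean and SD, n = 3). The ratio of *Ndufb5* to *Ndufb10* is 0.810 with control siRNA and 1.44 with *Xbp1* siRNA, and *Atp5mc3* holds 28.7% and 25.8% of the subunit c transcripts.

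In the matrix arm, *Ndufv3*, an accessory subunit of the NADH-binding module, had 84.8, 76.0 and 81.3 FPKM with control siRNA and 89.3, 92.3 and 88.9 FPKM with *Xbp1* siRNA. The groups did not overlap and the log2 fold change was 0.16 ± 0.05 (SE, limma adjusted p = 0.0276). This call was lost on leaving out any library except control siRNA library 1, at adjusted p between 0.0583 and 0.0863 by limma. *Ndufv1*, which binds NADH and the flavin, had 156, 150 and 135 FPKM with control siRNA and 136, 126 and 130 FPKM with *Xbp1* siRNA. It was called lower as deposited (log2 fold change -0.17 ± 0.06, SE, limma adjusted p = 0.0480), although the groups overlapped. The adjusted p was 0.603 with equal totals, 0.0501 with a pseudocount of 1 and 0.0620 with no filter on low values, and leaving out any library other than control siRNA library 3 ended the call, with values up to 0.138. *Ndufs1*, the subunit with the most iron-sulfur clusters, had 32.6, 39.4 and 36.8 FPKM with control siRNA and 32.7, 34.5 and 32.3 FPKM with *Xbp1* siRNA, and did not pass the test as deposited (log2 fold change -0.13, limma adjusted p = 0.209). Without control siRNA library 1 its log2 fold change was -0.20, with an adjusted p of 0.0299.

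**Figure D5:**
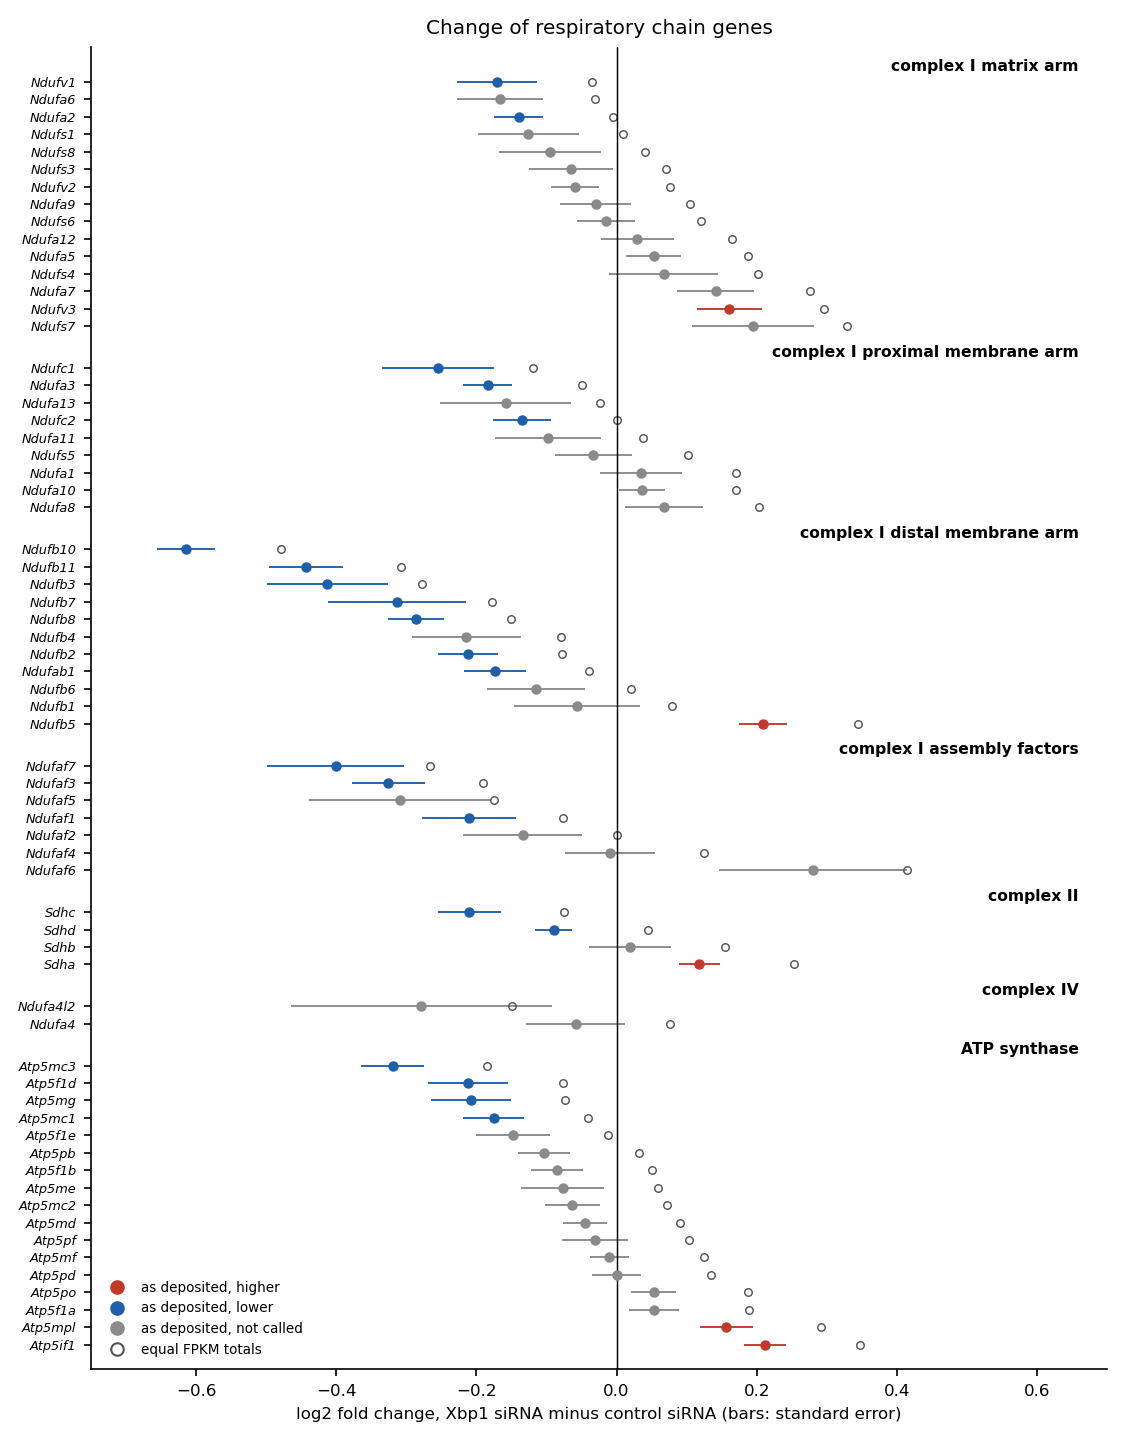
Log2 fold change (*Xbp1* siRNA minus control siRNA) of the members above the floor, with 1 left out, as deposited (filled, with its standard error, coloured by call) and with equal FPKM totals (open), ordered within each complex. *Ndufb10* lies lowest at -0.61 as deposited, and the distal membrane arm has 7 lower genes and *Ndufb5* alone higher.

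Of the 7 complex I assembly factors, 3 were lower as deposited (20.2% over all rows) and none was higher, with a median log2 fold change of -0.21 and 4 below an unadjusted p of 0.05 (48.9% over all rows). Leaving out control siRNA library 2 or *Xbp1* siRNA library 3 left 1 lower. *Ndufaf3*, which joins the quinone-binding module early in assembly, had 62.5, 58.2 and 58.6 FPKM with control siRNA and 50.6, 45.6 and 46.8 FPKM with *Xbp1* siRNA. All *Xbp1* siRNA libraries were below all controls, the log2 fold change was -0.33 ± 0.05 (SE, limma adjusted p = 0.00207), and the call held under every scaling and without each library. *Ndufaf7*, a protein arginine methyltransferase of the matrix, had 26.0, 28.4 and 26.2 FPKM with control siRNA and 18.3, 23.7 and 19.4 FPKM with *Xbp1* siRNA. Its log2 fold change was -0.40 ± 0.10 (SE, limma adjusted p = 0.0140), with an adjusted p of 0.0666 under equal totals, 0.0506 without control siRNA library 2 and 0.0512 without *Xbp1* siRNA library 3. *Ndufaf1*, which acts on the membrane arm, had a log2 fold change of -0.21 ± 0.07 (SE, limma adjusted p = 0.0410). Its call was lost under equal totals, abundant rows, quantile and cyclic loess scaling and with no filter on low values (0.0503), and leaving out control siRNA library 2 raised the adjusted p to 0.124, control siRNA library 3 to 0.108, *Xbp1* siRNA library 1 to 0.106 and *Xbp1* siRNA library 3 to 0.0635.

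Complex II, which has no subunit encoded by mitochondrial DNA, had 1 gene higher and 2 lower as deposited (20.2% in each direction over all rows), at a median log2 fold change of -0.04. *Sdha*, the flavoprotein that oxidizes succinate, had 170, 166 and 166 FPKM with control siRNA and 184, 179 and 183 FPKM with *Xbp1* siRNA. It rose by 8.55%, a log2 fold change of 0.12 ± 0.03 (SE, limma adjusted p = 0.0138), under every scaling, although leaving out control siRNA library 2 gave an adjusted p of 0.0526. *Sdhc*, one of the membrane anchors, had 193, 209 and 189 FPKM with control siRNA and 167, 175 and 168 FPKM with *Xbp1* siRNA. As deposited its log2 fold change was -0.21 ± 0.05 (SE, limma adjusted p = 0.00822), but equal totals, abundant rows, quantile and cyclic loess scaling gave adjusted p between 0.0871 and 0.228. The ratio of *Sdha* to *Sdhc* within a library went from 0.852 ± 0.0506 to 1.07 ± 0.0420 (SD, n = 3, no test). *Sdhd*, the other anchor, had 309, 304 and 305 FPKM with control siRNA and 287, 286 and 290 FPKM with *Xbp1* siRNA. Its log2 fold change was -0.09 ± 0.03 (SE, limma adjusted p = 0.0284), turned positive, up to 0.06, under equal totals, abundant rows, quantile and cyclic loess scaling, and lost the call on leaving out any one library, with adjusted p between 0.0562 and 0.0818. *Sdhb*, the iron-sulfur subunit, had 80.4 ± 5.34 FPKM and 81.4 ± 4.12 FPKM (limma adjusted p = 0.823). With equal totals it was called higher, at a log2 fold change of 0.15 (limma adjusted p = 0.0421).

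Of complex IV only *Ndufa4* and *Ndufa4l2* were measured here. *Ndufa4*, first described as a complex I subunit and now assigned to complex IV, had 324 ± 25.6 FPKM with control siRNA and 311 ± 21.9 FPKM with *Xbp1* siRNA (limma adjusted p = 0.553). Its paralog *Ndufa4l2*, known as a gene induced by low oxygen, had 2.80 ± 0.418 FPKM and 2.30 ± 0.436 FPKM (adjusted p = 0.279). The groups overlapped for both genes, and neither was below an unadjusted p of 0.05. The log2 difference of *Ndufa4l2* from *Ndufa4* within a library changed by -0.22, with an exact two-sided permutation p of 0.30.

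Of the 18 ATP synthase rows, 4 were lower, near the 20.2% of all rows, and 2 higher (20.2% of all rows) as deposited, with a median log2 fold change of -0.06 and 8 below an unadjusted p of 0.05, near the 48.9% of all rows. The number of lower rows was 2 without *Xbp1* siRNA library 1 or 2 and 6 without control siRNA library 3. Under quantile normalization 10 were higher and 1 lower, against 21.7% and 18.5% of all rows. The catalytic head showed no change that passed the test in its alpha and beta subunits as deposited. *Atp5f1a*, the alpha subunit, had 148 ± 5.58 FPKM with control siRNA and 153 ± 1.29 FPKM with *Xbp1* siRNA (limma adjusted p = 0.276, but between 0.00402 and 0.0131, higher, under equal totals, abundant rows, quantile and cyclic loess scaling). *Atp5f1b*, the catalytic beta subunit, had 451 ± 17.8 FPKM and 425 ± 8.69 FPKM (limma adjusted p = 0.108), with a log2 fold change between -0.09 and 0.08 over the scalings. It was called lower without control siRNA library 3 (adjusted p = 0.0355, limma) and higher under quantile normalization (adjusted p = 0.0287). *Atp5f1e* had a log2 fold change of -0.15 ± 0.05 (SE) as deposited and did not pass the test (limma adjusted p = 0.0580). It was called lower with the 1 FPKM filter (0.0426) and without control siRNA library 3 (0.0170) or *Xbp1* siRNA library 3 (0.0444). Under quantile normalization *Atp5f1e* was called higher (0.0218). *Atp5f1d*, the delta subunit of the central stalk, had a log2 fold change of -0.21 ± 0.06 (SE, limma adjusted p = 0.0213), and *Atp5mg*, a membrane subunit at the dimer interface, one of -0.21 ± 0.06 (adjusted p = 0.0229). Neither kept its call under equal totals (adjusted p = 0.261 and 0.308), and *Atp5mg* was called higher, by 0.14, under quantile normalization (adjusted p = 0.0237). *Atp5f1d* also lost the call without *Xbp1* siRNA library 1 (0.0564) or 2 (0.0709), and *Atp5mg* without control siRNA library 2 (0.0794), *Xbp1* siRNA library 1 (0.0678) or 2 (0.0625).

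*Atp5if1*, the inhibitor that binds the catalytic head and blocks ATP hydrolysis, was higher after *Xbp1* siRNA. Its level was 255, 263 and 251 FPKM in the control siRNA libraries and 296, 293 and 301 FPKM in the *Xbp1* siRNA libraries. The groups did not overlap, and the level rose by 15.8%, a log2 fold change of 0.21 ± 0.03 (SE, limma adjusted p = 0.00121). The call held under every scaling and without each library. Relative to *Atp5f1a* in the same library the log2 difference was 0.80 ± 0.02 with control siRNA and 0.95 ± 0.03 with *Xbp1* siRNA (SD, n = 3), a shift of 0.16. Its exact two-sided permutation p was 0.10, the smallest that 3 libraries against 3 allow, and 0.133 after adjustment over 4 pairs. *Atp5mpl*, a small membrane proteolipid of the enzyme, had 373, 400 and 379 FPKM with control siRNA and 437, 434 and 414 FPKM with *Xbp1* siRNA (log2 fold change 0.16 ± 0.04, SE, limma adjusted p = 0.0138). Its call was lost without the trend in eBayes (limma adjusted p = 0.0646).

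The rotor ring of ATP synthase is built from subunit c, for which *Atp5mc1*, *Atp5mc2* and *Atp5mc3* encode the same mature protein with different import sequences. *Atp5mc3* had 341, 324 and 312 FPKM with control siRNA and 253, 274 and 256 FPKM with *Xbp1* siRNA, with no overlap. It fell by 19.9%, a log2 fold change of -0.32 ± 0.05 (SE, limma adjusted p = 0.00114), and the call held under every scaling and without each library. *Atp5mc1* fell from 346 ± 19.6 FPKM to 306 ± 4.27 FPKM as deposited (limma adjusted p = 0.0150), but had an adjusted p of 0.394 with equal totals. *Atp5mc2*, the most abundant of the 3, had 464 ± 14.9 FPKM and 445 ± 17.2 FPKM (adjusted p = 0.247), and its log2 fold change lay between -0.07 and 0.14 over the scalings, with a call as higher under quantile normalization (adjusted p = 0.0135). As shares of their sum, *Atp5mc3* went from 28.7% ± 0.0766 to 25.8% ± 1.14, *Atp5mc2* from 40.9% ± 0.486 to 43.9% ± 1.14 and *Atp5mc1* from 30.4% ± 0.425 to 30.3% ± 0.172 (SD, n = 3). Within a library the log2 difference of *Atp5mc3* from *Atp5mc2* shifted by -0.26 and that of *Atp5mc1* from *Atp5mc2* by -0.11. Both had an exact two-sided permutation p of 0.10 (0.133 adjusted over 4 pairs), the smallest possible. The summed subunit c transcripts were 2.52 ± 0.0311 times the level of *Atp5f1b* with control siRNA and 2.38 ± 0.0789 times with *Xbp1* siRNA.

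As a sum over members, the group made up 14459 ± 374 FPKM with control siRNA and 13578 ± 234 FPKM with *Xbp1* siRNA, a loss of 6.09%, which was less than the loss of the library sum. As a share of that sum it went from 2.204% ± 0.0239 to 2.273% ± 0.0260 (SD, n = 3). By complex, the summed FPKM changed by -7.14% for complex I, -13.6% for its assembly factors, -3.99% for complex II and -5.11% for ATP synthase. As a share of the library sum these were changes of 1.99%, -5.07%, 5.44% and 4.22%. The assembly factors alone were lower on both measures. Such sums describe the libraries and carry no test.

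Some members adjoin genes with larger fold changes. In the RefSeq gene table of CriGri-PICRH-1.0, 65 of the 66 member symbols were found, and the neighbours of the 11 genes called under every scaling were read from its gene order. This was done after the values were seen. *Ndufb10* lies within 1 kb of *Rps2*, a protein of the small ribosomal subunit, which fell from 4822 ± 198 FPKM to 1678 ± 59.7 FPKM (log2 fold change -1.52, limma adjusted p = 1.53e-06), and it overlaps *Rpl3l*, which was below the filter. With a neighbour of that level and change, the value of *Ndufb10* is uncertain. *Ndufaf3* lies within 1 kb of *Impdh2*, which makes guanine nucleotides and fell from 167 ± 6.85 FPKM to 85.0 ± 4.79 FPKM (log2 fold change -0.97). *Ndufb11* lies within 1 kb of the splicing regulator *Rbm10*, which rose by 0.50 on the log2 scale. *Ndufb8* overlaps *Hif1an*, the asparaginyl hydroxylase of hypoxia-inducible factor (-0.23), and *Sdha* overlaps *Ccdc127* (0.38), with control means of 13.7 and 10.2 FPKM for the overlapping genes, far below those of *Ndufb8* and *Sdha*. Overlapping genes could share reads, so these values are also uncertain. Of 22 neighbours 19 were tested, with 6 higher and 5 lower (20.2% in each direction over all rows). Neighbours of the other members were not read, so these counts have no comparison within the group. The library kit marked strand, but how reads were assigned by strand or to several places is not given in the sources used here, and the part of neighbouring transcripts was not tested.

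Genes that serve the respiratory chain without matching the rule were read from 5 lists, in which 16 of 111 rows tested were higher and 27 lower as deposited, and 37 higher and 13 lower with equal totals. Over all rows these calls were 20.2% higher and 20.2% lower as deposited and 31.7% and 13.0% with equal totals. Without *Xbp1* siRNA library 2 there were 9 higher, and without library 3 of that group 10. Among assembly factors and chaperones of the complexes (24 tested of 51 listed), 4 were higher and 3 lower as deposited, and 9 higher and 2 lower with equal totals. *Sdhaf2*, which attaches the flavin to *Sdha*, fell from 34.8 ± 0.656 FPKM to 23.4 ± 0.760 FPKM (log2 fold change -0.57, limma adjusted p = 6.56e-05) while *Sdha* rose. *Tmem126a*, an assembly factor of the complex I membrane arm, rose from 31.4 ± 1.36 FPKM to 44.6 ± 3.29 FPKM (0.50, adjusted p = 0.000622). Both calls held under every scaling.

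Among mobile electron carriers and genes of coenzyme Q synthesis, 3 of 18 were higher and 2 lower as deposited (20.2% in each direction over all rows). With equal totals 6 were higher and 0 lower (31.7% and 13.0%). *Coq8a*, an atypical kinase needed for coenzyme Q synthesis, rose from 1.06 ± 0.343 FPKM to 2.32 ± 0.443 FPKM (log2 fold change 1.10, limma adjusted p = 0.0142). It was the only row of the 5 lists past the fold limit, and its adjusted p was 0.0527 without *Xbp1* siRNA library 2. *Coq10b*, a coenzyme Q binding protein, rose by 0.34 on the log2 scale (adjusted p = 0.0102). *Gpd2*, the glycerol phosphate dehydrogenase that feeds electrons to ubiquinone, changed by -0.25 as deposited (adjusted p = 0.00820) and lost the call with equal totals (0.166) and abundant rows (0.0867).

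Among 25 genes of pyruvate dehydrogenase and the citric acid cycle, 3 were higher and 11 lower as deposited (20.2% in each direction over all rows), and 6 higher and 6 lower with equal totals (31.7% and 13.0%). *Cs*, the synthase that forms citrate, fell from 148 ± 1.64 FPKM to 120 ± 1.53 FPKM (log2 fold change -0.30, limma adjusted p = 0.000202). *Pdhb*, the beta subunit of pyruvate dehydrogenase, fell from 39.8 ± 1.71 FPKM to 27.1 ± 1.38 FPKM (-0.55, adjusted p = 0.000207). The calls of *Cs* and *Pdhb* held under every scaling and without each library.

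Among nuclear regulators and genes of mitochondrial DNA expression, 4 of 22 were higher and 4 lower as deposited (20.2% in each direction over all rows). With equal totals 6 were higher and 1 lower (31.7% and 13.0%). *Lrpprc*, which stabilises mitochondrial mRNAs, fell from 92.4 ± 1.65 FPKM to 73.5 ± 3.36 FPKM (log2 fold change -0.33, limma adjusted p = 0.000663) under every scaling. *Gabpa*, the DNA-binding subunit of nuclear respiratory factor 2, changed by -0.28 (adjusted p = 0.00590) and had an adjusted p of 0.0852 with equal totals. Among carriers, cristae and import genes, 2 of 22 were higher and 7 lower as deposited, against the same 20.2% in each direction. With equal totals 10 were higher and 4 lower, against 31.7% and 13.0% of all rows. *Slc25a5*, an ADP/ATP carrier of the inner membrane, fell from 327 ± 5.90 FPKM to 197 ± 2.08 FPKM (-0.73, adjusted p = 3.86e-06), a larger fold change than that of any respiratory chain gene as deposited. *Hspa9*, the mitochondrial chaperone that pulls precursors through the inner membrane, fell from 363 ± 9.09 FPKM to 297 ± 7.39 FPKM (-0.29, adjusted p = 0.000429). The calls of *Slc25a5* and *Hspa9* held under every scaling.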

How the data were processed

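The deposited files hold FPKM values that the authors made, with 1 library per file. The submitters' processing notes name HISAT2 2.1.0 and Cuffdiff 2.2.1, while the genome build, the annotation and the treatment of strand and of reads mapping to several places are not given in the sources used here. Because FPKM values are not counts, limma 3.58.1 (lmFit, eBayes with trend) in R 4.3.3 on log2(FPKM + 0.1) replaced the DESeq2 test of the study's methods, and its limits of an adjusted p of 0.05 and a log2 fold change of 1 in size were kept. Fold changes are on the log2(FPKM + 0.1) scale. Rows with a mean FPKM of at least 0.1 were tested together (14361 of 27873), with Benjamini-Hochberg adjustment. No read totals come with the values, so relative depth was read from the commonest ratio between libraries over low values. Whole reads of weak member rows were then fitted with a tolerance of 0.03 times the read number. The floor was taken as 3 reads, for counting error only.

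In 10 simulated sets of 14361 rows for this comparison, 64.6% of 200 rows changed by 0.4 on the log2 scale were called, with 5 unchanged rows on average. The members and gene lists were chosen with earlier results of these data known. The text names, per complex, the most abundant row, the 3 largest called changes in each direction, paralogs and core subunits, and per list the 2 smallest p-values and rows past the fold limit. Neighbouring genes lie outside this rule and were named after their values were seen. The alternatives were 5 other scalings, pseudocounts of 1 or 0.01, no filter or a stricter one (1 FPKM), eBayes without trend, a replicate block and leaving out each library. In the plot of fold changes 1 member is not shown and is not reported here. Other steps used Python 3.11.15.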

Additional observations from a re-analysis of the deposited data

How the results depend on the processing

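Over 1028 alternative values of 64 results, 849 kept their direction and side of the threshold or stayed near the value reported, and 19 of 40 single genes did so under every alternative run. With equal totals, quantile, cyclic loess and abundant-row scaling in turn, the members called higher were 21, 20, 14 and 13 and those lower 6, 7, 8 and 8. For complex I they were 12, 9, 8 and 7 higher and 4, 4, 5 and 5 lower, and for ATP synthase 6, 10, 5 and 5 higher and 1 lower each time. Complex II had 0 lower under these 4 (2 below an unadjusted p of 0.05 by limma each time) and 2 higher with equal totals, and the complex I assembly factors had 1 higher and 1 lower there. The related lists had 37 higher and 13 lower with equal totals and 28 higher with abundant rows. The cause of these shifts was not tested.

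The median of the members was 0.0477, 0.0296, 0.0112 and 0.00902 under the same 4 scalings. The log2 ratio of summed FPKM with equal totals and with abundant rows was 0.0285 and -0.0101 for complex I, -0.0751 and -0.114 for the assembly factors, 0.0764 and 0.0377 for complex II, and 0.0596 and 0.0209 for ATP synthase. Over all members 19 rows were positive as deposited and 41 with equal totals, and among the genes named in the text those that turned positive were *Atp5f1b* (0.0502, 0.0840, 0.0513 and 0.0116), *Atp5mc2* (0.0720, 0.144, 0.0746 and 0.0334), *Ndufa4* (0.0768, 0.0917, 0.0651 and 0.0381) and *Sdhd* (0.0451, 0.0629, 0.0308 and 0.00646) under the 4 scalings in the same order, *Atp5f1e* with quantile (0.128, limma adjusted p = 0.0218) and cyclic loess (0.0254), *Atp5mg* with quantile (0.142) and *Ndufs1* with equal totals (0.00882).

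Without the trend in eBayes, the members called were 2 higher and 10 lower (18.1% and 18.3% over all rows), with 1 and 6 in complex I, 0 and 1 in complex II, 1 and 1 in ATP synthase and 10 higher in the related lists. Of the named genes, *Atp5mpl* (adjusted p = 0.0646), *Ndufv3* (0.0809), *Sdha* (0.0709), *Atp5f1d* (0.0706), *Atp5mc1* (0.0635), *Atp5mg* (0.0768), *Ndufaf1* (0.0887), *Ndufv1* (0.120) and *Sdhd* (0.127) lost the call there (limma). On leaving out each library in turn, the members called ranged from 3 to 8 higher and 13 to 18 lower, complex I from 1 to 5 higher and 7 to 10 lower, its assembly factors from 1 to 3 lower, complex II from 0 to 1 higher with 1 lower each time, ATP synthase from 2 to 6 lower, and the related lists from 9 to 13 higher. The log2 fold change of *Sdhb* ranged from -0.0215 to 0.0737, at -0.00903 and -0.00630 without control siRNA libraries 2 and 3 and at the lowest without *Xbp1* siRNA library 3.

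The libraries share only a replicate number (correlations of their deviations from the group means between -0.0289 and -0.0124). With the number as a replicate block, 6 members were higher and 23 lower (19.3% and 20.0% over all rows). The simulated recovery of 64.6% at a change of 0.4 on the log2 scale came from sets in which 200 of 14361 rows were changed. A far larger share of rows was called in the data (20.2% in each direction), and the changed rows were not chosen to resemble the members. This recovery therefore does not measure detection among the members. An exact permutation test of 3 libraries against 3 cannot pass 0.05.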
